A study of Caenorhabditis elegans with 2 samples.

Results

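The transfer RNA (tRNA) genes on the 5 autosomes of Caenorhabditis elegans were examined for BED-2 binding. They were taken as every gene of biotype tRNA on chromosomes I to V in the Ensembl annotation of assembly WBcel235, which is the ce11 assembly of the peak lists. The rule gave 336 genes of the 46890 nuclear genes annotated, with 66 on chromosome I, 57 on II, 64 on III, 71 on IV and 78 on V. All 336 coincided with a tRNA gene of the RefSeq annotation, which gave an isotype (the amino acid carried) to 334 of them, across 21 isotypes that include selenocysteine. Their lengths ran from 68 to 122 bp with a median of 72 bp.

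Binding was measured by chromatin immunoprecipitation and sequencing (ChIP-seq) in intact worms of strain RW12335, in which TY1, EGFP and 3xFLAG sequences were placed at bed-2 on chromosome III by CRISPR. Larvae hatched from bleached adults were synchronized by starvation at L1 and collected as young adults at 63 hours, and an antibody against GFP recovered the sonicated chromatin. The study has 1 group of 2 biological replicates. Every animal carries the tag, and neither an untagged strain nor an input library was analysed here. Since whole animals were used, a peak mixes all cell types of the worm, and a strong peak in few cells cannot be told apart from a weak one in many. The values are the authors' peak lists, which hold no read counts, so the depth is unknown. The ranked list holds 82301 candidate peaks matched between the replicates, each with a summit and a signal value from the peak caller. The conservative list holds 615 peaks that passed the authors' threshold on the irreproducible discovery rate (IDR). The IDR is low for peaks that rank high, and alike, in both replicates. The threshold corresponded to a global IDR of 0.01. In the ranked list 635 peaks passed it, so not every passing peak is in the conservative list. What left the others out was not examined.

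Transfer RNA genes are transcribed by RNA polymerase III. Their promoter lies inside the transcribed sequence, as an A box near the start and a B box near the end, and the factor TFIIIC binds these boxes and recruits TFIIIB upstream of the start. Transcription ends at a short run of T just after the gene. BED-2 contains a zinc finger of the BED class, a fold that binds DNA and is found in chromatin-associated and transposase-derived proteins. The question asked here is at which of these genes tagged BED-2 was detected, where along them, and how far the replicates gave the same picture.

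The sequences below show the promoter layout at genes with a conservative peak and, for 3 of them, at another copy of the identical gene that had a much weaker peak. They are RefSeq sequences of WBcel235 on the gene's strand, with 30 bases before the gene and 15 after it. Capitals mark, in order, the A box letters TNGNNNAG, the B box letters GTTCNANNC, and the first run of at least 4 T after the gene. The windows are, for the Thr genes, chrII:3567595-3567711 (minus strand) and chrII:3439204-3439320 (minus strand). Those of the Lys genes are chrV:15465056-15465173 (plus strand), chrV:8495272-8495389 (plus strand) and chrV:13027013-13027130 (minus strand). Those of the Pro genes are chrV:15465210-15465326 (minus strand) and chrV:13509663-13509779 (plus strand). The Phe window is chrV:19126014-19126131 (plus strand), the Ile window chrV:12002146-12002275 (plus strand) and the selenocysteine window chrIV:658151-658281 (plus strand).
W10G11.t2, Thr: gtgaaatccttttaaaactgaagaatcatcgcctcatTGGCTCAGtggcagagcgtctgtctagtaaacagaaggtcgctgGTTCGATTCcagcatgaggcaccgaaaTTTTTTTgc
C16C8.t2, Thr: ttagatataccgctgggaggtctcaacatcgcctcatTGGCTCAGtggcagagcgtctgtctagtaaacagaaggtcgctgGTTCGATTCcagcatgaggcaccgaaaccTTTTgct
T23F1.t1, Lys: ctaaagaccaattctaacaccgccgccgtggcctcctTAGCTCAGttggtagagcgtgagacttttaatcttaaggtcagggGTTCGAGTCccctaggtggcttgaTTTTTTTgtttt
ZK994.t1, Lys: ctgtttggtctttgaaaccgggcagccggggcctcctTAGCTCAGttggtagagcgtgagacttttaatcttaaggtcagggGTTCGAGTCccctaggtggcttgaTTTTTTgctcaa
W07G4.t1, Lys: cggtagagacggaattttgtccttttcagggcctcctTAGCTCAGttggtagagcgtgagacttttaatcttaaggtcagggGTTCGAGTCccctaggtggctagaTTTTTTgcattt
T23F1.t2, Pro: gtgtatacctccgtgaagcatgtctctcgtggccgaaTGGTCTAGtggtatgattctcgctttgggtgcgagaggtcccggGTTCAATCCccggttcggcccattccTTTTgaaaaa
R11G10.t1, Pro: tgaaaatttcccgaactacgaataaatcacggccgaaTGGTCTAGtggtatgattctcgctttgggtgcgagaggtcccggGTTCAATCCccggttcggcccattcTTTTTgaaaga
Y39B6A.t9, Phe: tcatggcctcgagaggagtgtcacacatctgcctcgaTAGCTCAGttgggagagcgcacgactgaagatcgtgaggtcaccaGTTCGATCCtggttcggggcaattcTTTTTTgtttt
F57F5.t1, Ile: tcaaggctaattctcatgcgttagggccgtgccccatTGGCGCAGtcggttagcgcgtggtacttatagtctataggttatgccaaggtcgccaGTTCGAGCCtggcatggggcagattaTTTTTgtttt
K11H12.t1, Sec: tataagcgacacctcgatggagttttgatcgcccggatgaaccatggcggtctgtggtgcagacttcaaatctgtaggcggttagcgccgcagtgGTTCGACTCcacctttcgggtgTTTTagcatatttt

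A gene copy and its weaker twin share every base from start to end, and the bases around the gene differ. Each twin was picked as the autosomal copy with the lowest signal among those with a ranked summit. The part of the surrounding sequence in the signal was not tested. W10G11.t2 had a signal of 111 and C16C8.t2 one of 35.8, each at a peak shared with a neighbouring Lys gene. The summit of the peak of 111 lay inside that Lys gene. Among the Lys genes, T23F1.t1 had 86.9 and ZK994.t1 had 79.6, against 25.4 for W07G4.t1. Among the Pro genes, T23F1.t2 had 86.9, at the same peak as T23F1.t1, and R11G10.t1 had 25.8. No A box letters were found in the selenocysteine gene, whose tRNA has an unusual fold.

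Most autosomal tRNA genes had a candidate peak close to the start, and 28 had one in the conservative list. A ranked summit lay within 500 bp of the start of 298 of the 336 genes (88.7%), where 49.6% of all nuclear genes had one. A conservative summit lay within 500 bp of 28 (8.33%), where the share of all nuclear genes was 1.41%. Among genes with any ranked summit, these shares were 9.40% for the autosomal tRNA genes and 2.85% for all nuclear genes. Protein-coding genes had a conservative summit at 352 of 19973 starts (1.76%).

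Other short noncoding genes gave shares on either side of these. The tRNA genes on X had ranked summits at 260 of 276 genes (94.2%) and conservative ones at 39 (14.1%). Small nucleolar RNA (snoRNA) genes, whose products guide rRNA modification, had ranked summits at 262 of 346 and conservative ones at 45 (13.0%). Of the 15 annotated 5S rRNA genes on chromosome V, also transcribed by RNA polymerase III, 6 had a ranked summit and 0 a conservative one.

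The 298 genes corresponded to 270 distinct peaks, each 320 bp wide, which is the greatest width in the list. The 28 genes with a conservative summit lay at 25 distinct strongest peaks, and 27 conservative summits in all were within reach of them. Genes with conservative summits numbered 6 on chromosome I, 4 on II, 4 on III, 6 on IV and 8 on V. They covered 16 isotypes, 22 anticodons and 24 distinct gene sequences.

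The median signal at autosomal tRNA genes was above that of all nuclear genes. The strongest ranked peak had a median signal of 41.7 at autosomal tRNA genes (quartiles 31.5 and 57.9, range 3.11 to 111, 298 genes), against 25.9 at all nuclear genes with a ranked summit. The medians were 44.2 at the X tRNA genes, 35.7 at snoRNA genes and 25.9 at protein-coding genes. In the ranked list as a whole the median was 21.0, and in the conservative list it was 85.3. At 173 of the 298 genes (58.1%) the peak was in the top 10% of all ranked peaks by signal, where 19.2% of all nuclear genes with a ranked summit had such a peak. That share was 65.8% at the X tRNA genes and 45% at snoRNA genes.

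**Figure D1:**
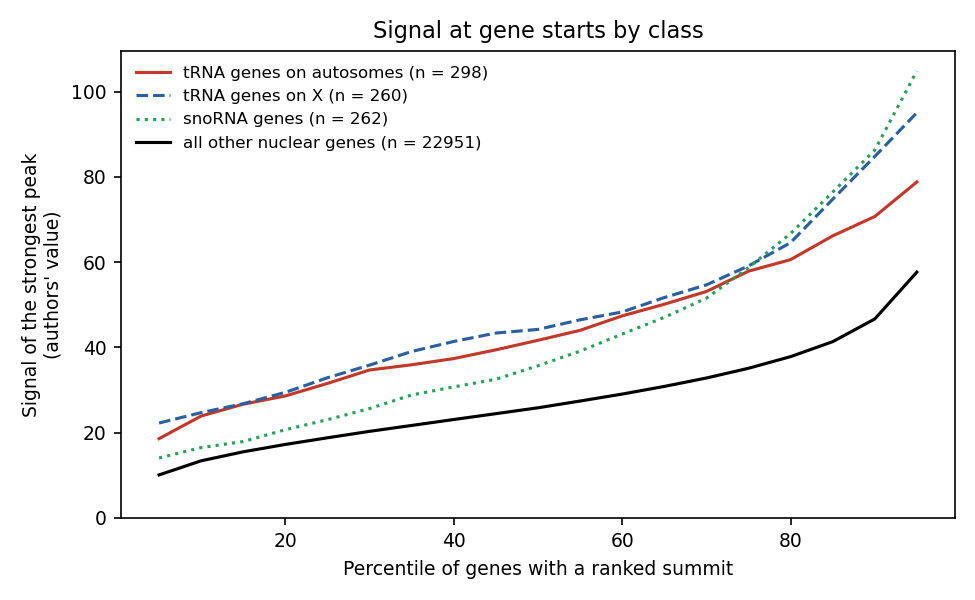
Signal of the strongest ranked peak within 500 bp of the start (vertical axis, authors' value) at each percentile of the genes that had one (horizontal axis), for autosomal tRNA genes, X tRNA genes, snoRNA genes and all other nuclear genes. The autosomal tRNA line is above that of all other nuclear genes across the plot, and its median of 41.7 compares with 25.8 for those genes, while the X tRNA line stays close to or above it and the snoRNA line crosses it toward the high end.

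The plot of signal by percentile also shows where the classes part at the top. The highest signal at an autosomal tRNA gene was 111, against 125 at an X tRNA gene, 302 at a snoRNA gene and 459 at a protein-coding gene. At the 5S rRNA genes, which are not plotted, the highest was 132 and the median 32.7 over 6 genes with a ranked summit. Conservative peaks at autosomal tRNA genes had signals of 60.7 to 111 with a median of 81.4, and the peaks that were ranked only had 3.11 to 74.4 with a median of 39.5. The −log10 of the global IDR, which is higher for peaks that rank high in both replicates, had medians of 2.51 and 0.409 in these sets. The conservative list was chosen on this value, so its higher medians follow at least in part from that choice. A low value can mark a weak peak as well as one on which the replicates differ. Of the 270 genes that were ranked only, 57 had a value of at least 1 and 213 lay below it.

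Summits sat on or beside the tRNA gene itself. The median offset of the strongest summit from the start was 23 bp downstream (quartiles −31.25 and 90.5), and the median distance in either direction was 69 bp, against 225 bp over all nuclear genes with a ranked summit. Within 100 bp of the start were 188 of 298 summits (63.1%), where the share over all nuclear genes was 24.0%. The X tRNA genes gave 65.8% and snoRNA genes 43.9%. Of the 298 summits, 101 lay inside the gene, 109 upstream and 88 downstream, and the peak overlapped the gene at 251 (84.2%).

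**Figure D2:**
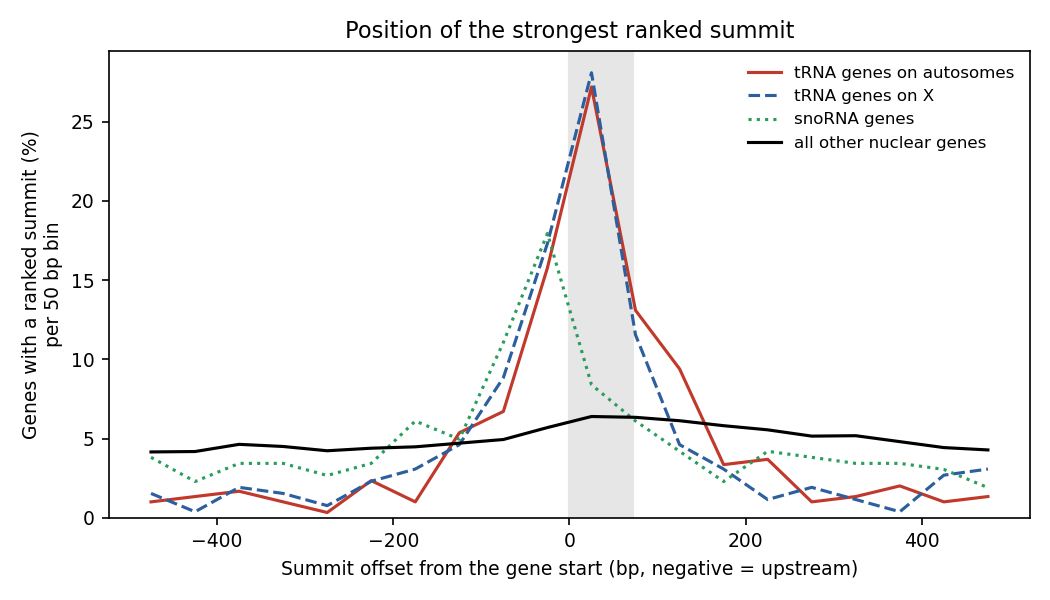
Share of genes with a ranked summit (vertical axis, percent per 50 bp bin) by the position of the strongest summit from the gene start (horizontal axis, bp, negative is upstream), for 4 gene classes, with the median tRNA gene length shaded. The autosomal tRNA line peaks in the bin from 0 to 50 bp with 27.2% of genes, nearly as the X tRNA line does, snoRNA genes peak just upstream of the start, and all other nuclear genes stay between 4.16% and 6.39%.

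The summits were spread over the gene and its flanks. At genes with a conservative summit, the median distance of the strongest summit was 68.5 bp from the start, 54.25 bp from the gene's middle, 44 bp from the B box letters and 47.5 bp from the end. Of these 28 summits, 11 lay inside the gene, 7 upstream and 10 downstream, and 21 were within 100 bp of the start. The same gene's summits in the 2 replicates lay a median of 51 bp apart at the 28 genes, so these distances do not separate the boxes. At ranked-only genes with a peak in both replicates, the summits lay 82.5 bp apart.

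The strongest peak served a pair of genes. W10G11.t2 (WBGene00023165, Thr, anticodon AGT, chrII:3567610-3567681, minus strand) and W10G11.t1 (WBGene00023164, Lys, anticodon CTT, chrII:3567764-3567836, minus strand) are 82 bp apart, outside protein-coding genes. Their peak at chrII:3567638-3567957 had a signal of 54.8 in replicate 1 and 56.1 in replicate 2, and 111 in the ranked list of both. It ranked 152 of 82301, with its summit 38 bp inside the Lys gene and 117 bp upstream of the Thr gene. The values of the replicates were nearly equal there.

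Next came peaks of nearly the same height at 4 genes. Y39B6A.t9 (WBGene00014567, Phe, anticodon GAA, chrV:19126044-19126116, plus strand) had 42.5 in replicate 1 and 59.7 in replicate 2, and 105 in the list of both, with the summit 26 bp upstream. The convergent genes Y22D7AL.t3 (WBGene00023170, Met, chrIII:1604582-1604653, plus strand) and Y22D7AL.t4 (WBGene00023171, Glu, chrIII:1604702-1604773, minus strand) shared a peak with 49.4 and 68.2 in replicates 1 and 2 and 104 in the list of both. F57F5.t1 (WBGene00014406, Ile, anticodon TAT, chrV:12002176-12002260, plus strand), a gene with an intron and no identical copy, had 56.7 and 45.1 in replicates 1 and 2 and 104 in the list of both. Replicate 2 was the higher at the Phe gene and the Met and Glu pair, and replicate 1 at the Ile gene.

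Of the other high peaks, 4 were at tRNA genes for Val and Arg. F22G12.t1 (WBGene00014344, Val, chromosome I) had 31.1 and 60.0 in replicates 1 and 2 and 95.4 in the list of both. F14B4.t1 (WBGene00014325, Arg, anticodon TCG, chromosome I) had 37.5 and 52.5, and 93.6 in the list of both. F56F3.t1 (WBGene00014402, Arg, chrIII:4470886-4470958, minus strand), a copy of the same gene, had 34.2 and 44.3, and 83.2 in the list of both. The remaining autosomal copy, F35H8.t1 (WBGene00014365), had 22.0 and 34.9, and 67.1 in the list of both, and was ranked only. F47G6.t1 (WBGene00023055, Arg, anticodon TCT, chromosome I), inside the protein-coding gene spe-15, had 35.7 and 50.5, and 86.2 in the list of both. All of these were higher in replicate 2.

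The remaining peaks among the 12 highest were at Gly, Leu, Lys and Pro genes. F10C1.t1 (WBGene00022983, Gly, anticodon GCC, chrII:5782212-5782282, minus strand) had 39.0 and 51.4 in replicates 1 and 2 and 91.9 in the list of both. C43G2.t1 (WBGene00022959, Leu, anticodon CAG, chrIV:6556818-6556901, plus strand) had 39.9 and 48.6, and 87.3 in the list of both. Both genes lie outside protein-coding genes, with summits 109 and 44 bp downstream of the start. The convergent genes T23F1.t1 (WBGene00014531, Lys, chrV:15465086-15465158, plus strand) and T23F1.t2 (WBGene00014532, Pro, chrV:15465225-15465296, minus strand) shared a peak with 36.7 and 51.4, and 86.9 in the list of both. ZK994.t1 (WBGene00023220, Lys, chrV:8495302-8495374, plus strand), inside pxn-1, had 26.3 and 50.5, and 79.6 in the list of both.

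The single selenocysteine gene also had a conservative peak. K11H12.t1 (WBGene00023106, chrIV:658181-658266, plus strand), inside K11H12.8 on the same strand, had 41.3 in replicate 1 and 32.6 in replicate 2, and 72.2 in the list of both, with the summit 75 bp upstream of the start. Its ratio of replicate 1 to replicate 2, 1.27, was the highest among the 25 conservative peaks. F57F5.t1 and B0350.t1 (WBGene00022903, Lys, chrIV:5967160-5967232, plus strand), with 40.2 and 36.6, came next, at 1.26 and 1.10. At the other end were F22G12.t1 at 0.518, ZK994.t1 at 0.521 and C24H11.t1 (WBGene00014264, Thr, chrIII:11792782-11792853, plus strand) at 0.541.

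Some genes with a high signal were left out of the conservative list. C15C6.t1 (WBGene00013993, Arg, chromosome I) had 74.4 in the list of both replicates, with 15 in replicate 1 and 58.3 in replicate 2, and a −log10 global IDR of 0.431. K07A1.t1 (WBGene00014424, Ser, chromosome I) had 73.2, with 26.3 and 45.7, and a value of 1.94. C05G6.t1 (WBGene00022911, Val, chrIV:620482-620554, plus strand) had 72.0, with 24.9 and 42.9, and 1.76. These exceeded the weakest conservative peak, 60.7 at Y110A2AL.t1 (WBGene00023203, Leu, chrII:2860342-2860423, plus strand), and replicate 2 was the higher in each.

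The isotypes overlapped widely in signal. Medians ran from 34.6 at the 9 Tyr genes with a ranked summit to 58.7 at 15 Arg genes, leaving aside the single selenocysteine gene. Lys genes had the most conservative summits, 5 of 28 (17.9%), followed by Arg with 3 of 17 (17.6%), where the share of all autosomal tRNA genes was 8.33%. The Lys genes W10G11.t1 and T23F1.t1 shared their peaks with a Thr and a Pro gene, which count for those isotypes too. The 12 Gln, 11 His, 21 Ser, 7 Trp and 11 Tyr genes had none, and whether any isotype differs from the share of all was not tested. Gly, the isotype with the most genes, had 1 of 35. None of the 3 Gly genes with anticodon CCC had a ranked summit.

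**Figure D3:**
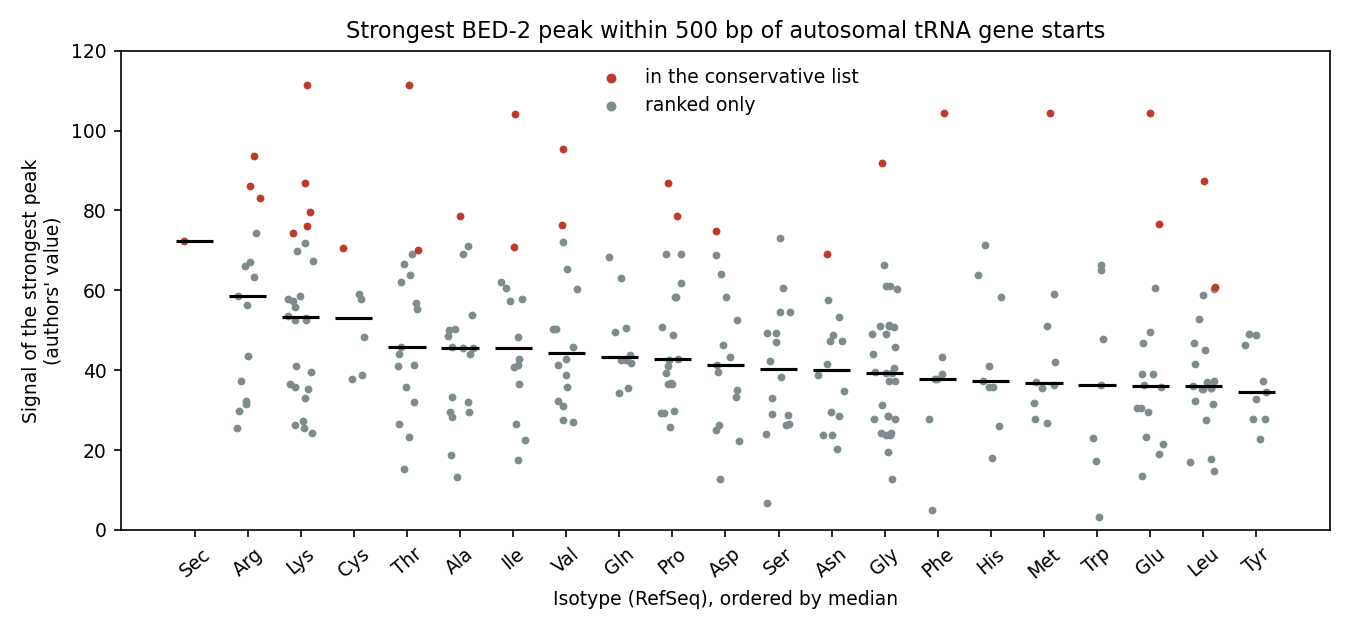
Signal of the strongest ranked peak (vertical axis, authors' value) at each autosomal tRNA gene, by isotype in order of median (horizontal axis); points are genes, black bars are medians, and red points have a conservative summit. Arg and Lys have the highest medians after selenocysteine, 58.7 and 53.4, and the ranges of the isotypes with several genes overlap.

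Copies of one gene sequence spanned wide ranges of signal. The 336 genes had 137 distinct sequences, and 23 of these sequences had at least 5 autosomal genes, covering 189 genes. In 12 of the 23 families at least 1 gene had a conservative summit, and in 0 did every gene. Family medians ran from 30.5 to 57.4, while the highest signal within a family was 1.56 to 21.3 times the lowest, with a median ratio of 3.39. The widest ratio, in a Trp family with signals of 3.11 to 66.4, rested on 1 gene. At Y73F8A.t2 (WBGene00006330, chrIV:15289703-15289774, plus strand), the peak of 3.11 lay 259 bp downstream of the start, while replicate 1's own list had a peak of 33.5 at 53 bp and replicate 2's own list had none. Without that gene, left out after its value was seen, the Trp family ran from 22.9 to 66.4 and the widest ratio was 5.94, in an Asp family.

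The large families show the spread. The 15 autosomal Lys genes with anticodon CTT of one sequence had 24.2 to 111 and 2 conservative summits. The 18 Gly genes with anticodon TCC of one sequence had 19.6 to 66.5 and none. The 11 Pro genes had 25.8 to 86.9, and the 9 Lys genes with anticodon TTT had 25.4 to 86.9, each with 2 conservative summits. Outside these families, Y39B6A.t9 with a signal of 105 has 1 identical copy, Y53C12A.t1 (WBGene00014588, chrII:9713224-9713296, minus strand), whose strongest ranked peak had 4.92 and lay 397 bp downstream of the start. Replicate 1's own list had a peak of 16.2 at 6 bp from the start of that copy, against 42.5 at Y39B6A.t9, and replicate 2's own list had none there.

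**Figure D4:**
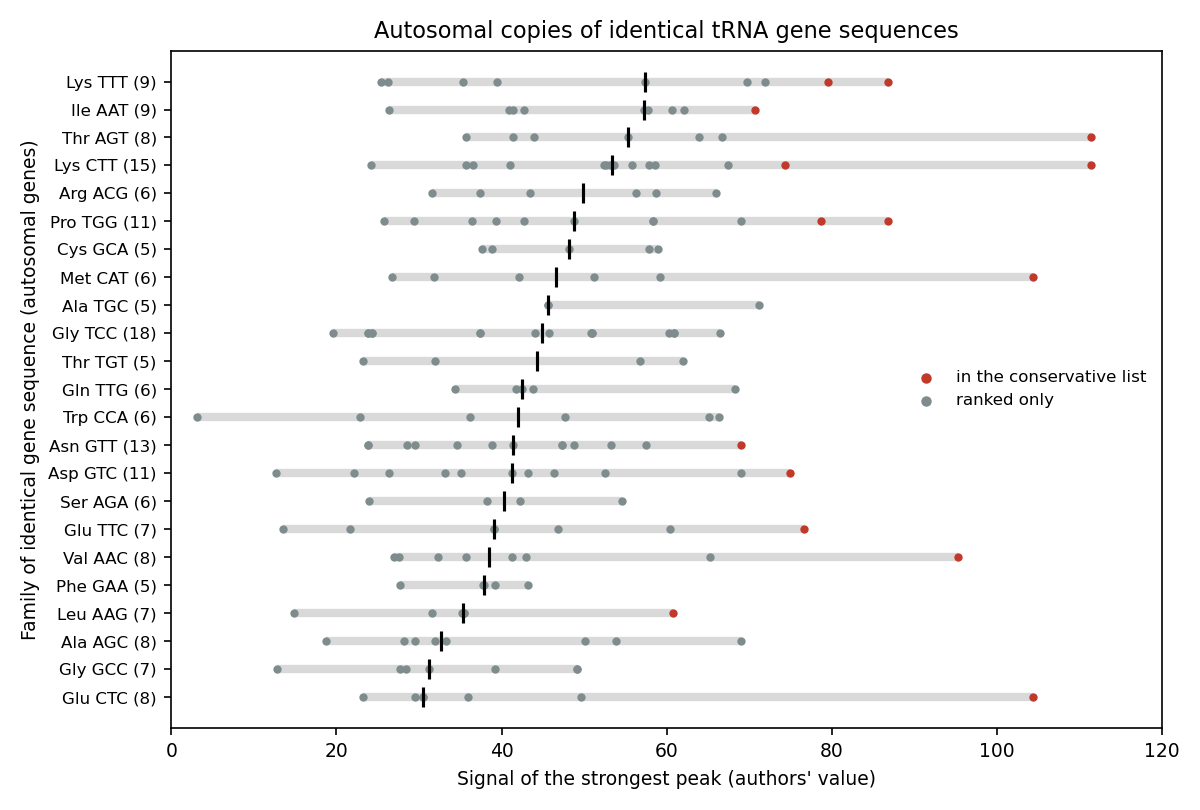
Signal of the strongest ranked peak (horizontal axis, authors' value) at autosomal genes of identical sequence, for the 23 sequences with at least 5 autosomal genes (rows, in order of median, with the number of genes); points are genes, the grey bar spans the family, the black tick is its median, and genes with no ranked summit are not plotted. Red points, the genes with a conservative summit, lie at the high end of families whose other copies reach far lower, such as Lys CTT with 24.2 to 111. Their high place follows at least in part from the choice of that list, which takes peaks that rank high in both replicates.

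A Thr gene and a Lys gene on the same strand recur 3 times within chromosome II, and this set was singled out after its values were seen. The pair W10G11.t2 and W10G11.t1 described above had 111. The pair C16C8.t2 and C16C8.t1 (WBGene00022930), 103 bp apart, had 35.8, and the pair W09G10.t3 (WBGene00023162) and W09G10.t2 (WBGene00023161), 92 bp apart, had 41.0. The 3 Lys genes have the same sequence, and only the first pair was in the conservative list. In all, 28 peaks served a pair of autosomal tRNA genes, 16 of them divergent, 8 on the same strand and 4 convergent, and 3 of the 28 were conservative.

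The gene sequence and its setting were compared between genes with and without peaks. The B box letters were present in 27 of the 28 genes with a conservative summit and in 319 of all 336 (94.9%). The exception, Y22D7AL.t3, belongs to a family of 6 autosomal Met genes, none with these letters, whose signals ran from 26.8 to 104. The peak of 104 is the one shared with the Glu gene Y22D7AL.t4, which has the letters. Its summit lay 171 bp downstream of the Met start, outside that gene, and 20 bp downstream of the Glu start, inside the Glu gene. The next highest signal in the Met family was 59.1, at a gene that was ranked only. The A box letters, starting at base 7, 8 or 9 of the gene, were present in 23 of the 28 and in 249 of all genes (74.1%), and a run of at least 4 T followed 28 of 28 and 329 of all (97.9%). Introns were present in 17 genes, namely all 11 Tyr genes, the 4 Leu genes with anticodon CAA and 2 Ile genes, and 1 of the 17 had a conservative summit.

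The genes were then grouped by the number of identical copies in the nuclear genome. Of 85 genes with no identical copy, 71 had a ranked summit (83.5%) and 6 a conservative one (7.06%), with a median signal of 37.1. For 2 to 9 copies the shares were 81.6% and 10.3% of 87 genes with a median of 45.7, and for 10 or more they were 95.1% and 7.93% of 164 genes with a median of 42.8. Within 100 bp of the summit, the share of 50-base words that recur in the genome had a median of 22.0% at conservative genes and 17.1% at ranked-only genes, and 7 of the 28 conservative genes had none. The part of recurring sequence in the signal was not tested.

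The place of the gene gave different counts of conservative summits and similar median signals, with no test of the difference. A conservative summit was found at 17 of 142 genes outside protein-coding genes (12%), 8 of 116 inside on the same strand (6.90%) and 3 of 78 inside on the opposite strand (3.85%). The 3 conservative peaks shared by a pair of genes all lay outside. Counted once per distinct strongest peak, the conservative ones were 14 of 110, 8 of 107 and 3 of 64. The median signals were 41.0, 42.4 and 43.0. At 8 of the 28 conservative genes the start of another gene that is not a tRNA gene was nearer to the summit, and all 8 were annotated as ncRNA and 0 as protein-coding.

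Short words were counted in the 101 bp around summits. The B box letters, on either strand, were in 15 of 25 conservative peaks at autosomal tRNA genes and 102 of 270 ranked ones (37.8%). They were in 8.94% of all conservative peaks and 4.37% of all ranked peaks, which include the peaks at tRNA genes. The tRNA windows were chosen for lying near genes of which 94.9% hold the letters. A higher share there was set by that choice and says nothing about binding. The words ACGCGC and GTACAC, chosen from earlier results of these data and sought on both strands, were in 2 and 3 of the 25. ACGCGC was in 13.7% of all conservative and 1.91% of all ranked windows, and GTACAC in 10.1% and 2.86%. The GC content of the windows had a median of 52.5% at conservative tRNA peaks, 50.5% at all conservative peaks and 40.6% at all ranked peaks, and the part of GC content in the counts of words was not tested.

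Most of the genes had a candidate peak in each replicate. In its own ranked list, replicate 1 had a summit at 265 of the 336 genes (78.9%), where 37.5% of all nuclear genes had one. Replicate 2 had one at 273 (81.2%), where that share was 37.4%. The median signals were 21.9 and 25.8. Of the 298 genes with a ranked summit in the list of both, 234 had one in each replicate. The medians over all nuclear genes were 15.7 and 18.2. At the 28 conservative genes the medians were 37.0 in replicate 1 and 46.9 in replicate 2, and replicate 2 was higher at 24 of them. The ranked list gives 2 matched values per peak, and the one that coincided with replicate 2 at these genes was higher at 21 of their 25 distinct peaks. It was also the higher at 396 of all 615 conservative peaks and at 48791 of all 82301 ranked peaks.

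**Figure D5:**
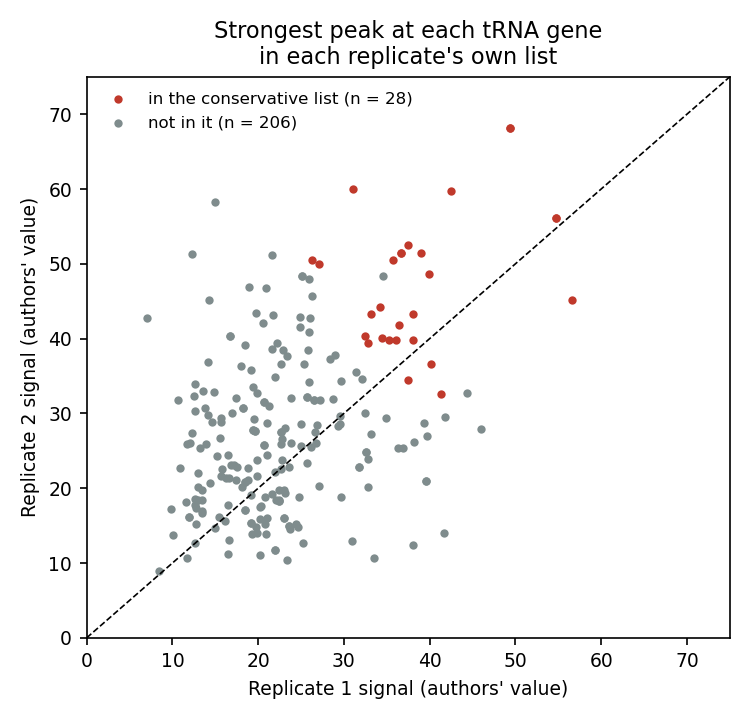
Signal of the strongest peak at each autosomal tRNA gene in the own ranked list of replicate 1 (horizontal axis) and of replicate 2 (vertical axis), both the authors' values. Plotted are the 234 genes with a ranked summit in the list of both and a peak in each replicate's own list. The dashed line marks equal values. The 28 genes with a conservative summit lie at the upper right, most of them above the line. Their high values follow at least in part from the threshold, which takes peaks that rank high in both replicates.

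Across the 270 distinct peaks, the log2 signals that the ranked list gives for its matched peaks had a Pearson r of 0.32 and a Spearman rho of 0.344. Over all 82301 ranked peaks they were 0.25 and 0.199. These are descriptions over peaks of the same libraries, not tests. Within the 25 conservative peaks, whose range is narrowed by the threshold, they were 0.16 and 0.118, and over all 615 conservative peaks 0.67 and 0.394.

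Either replicate alone gave fewer passing peaks, in lists whose IDR cannot compare the replicates. The thresholded list of replicate 1 had a summit at 4 autosomal tRNA genes, where its share of all nuclear genes was 0.584%, and that of replicate 2 had one at 11, where the share was 0.610%. All 4 were among the 11. They were the Thr and Lys pair of W10G11 and the Met and Glu pair of Y22D7AL. Of the 28 conservative genes, 19 were in neither list. The other thresholded list of the series, whose share of all nuclear genes was 1.47%, had 26 of the autosomal tRNA genes, 22 of them shared with the conservative list.

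No ranked summit lay within 500 bp of 38 of the 336 genes, where 23641 of all 46890 nuclear genes had none. Chromosome IV had 16 of its 71 genes among them, Gly 5 of 35 and Ser 5 of 21. The B box letters were in 34 of the 38 (89.5%), where the share of all autosomal tRNA genes was 94.9%. In the replicates' own lists, 5 of the 38 had a summit in replicate 1 and 12 in replicate 2. Of the 38, 1 had a summit in both and 22 in neither. The highest signals there were 25.6 in replicate 1 and 31.9 in replicate 2. At the limit of 500 bp, the nearest ranked summit was 449 bp from C37A5.t1 (WBGene00014282, Ser, signal 6.66) and 478 bp from C44B7.t1 (WBGene00022961, Glu, signal 13.6). Just beyond it were F27E11.t1 (WBGene00023017, Met) at 540 bp with 33.3 and F37A4.t1 (WBGene00023031, Lys) at 547 bp with 24.3.

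Genes listed by symbol for the machinery that makes and matures tRNA were examined as a separate list. Whole families, such as the nsun genes, entered by name, and whether each member acts on tRNA was not checked. Of its 35 protein-coding genes, 23 had a ranked summit, with a median signal of 27.7, and 1 had a conservative summit (2.86%), where the shares of all protein-coding genes were 59.9% for ranked and 1.76% for conservative summits. That one was mtcu-2, which acts in the modification of mitochondrial tRNA, with 151 in replicate 1, 136 in replicate 2 and 288 in the list of both, at a summit 469 bp upstream of the start. Of 10 genes for RNA polymerase III and its factors, 7 had a ranked summit and 0 a conservative one. The highest were tbp-1, the TATA-binding protein, with 54.0, tftc-3, a TFIIIC subunit, with 40.8, and brf-1, a TFIIIB subunit, with 37.1. Of 7 genes for tRNA ends and splicing 3 had a ranked summit, as did 12 of 17 listed for modification and the tRNA exportin gene xpo-3, with 30.1.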

How the data were processed

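ChIP-seq of tagged BED-2 in whole young adults was available as 8 peak lists, 4 of the series and 4 of single replicates, on ce11. Per the text deposited with the samples, the authors built replicate lists from the alignment of 1 replicate plus a control, and series lists from both alignments. Which aligner and caller were used is not given in the sources used here, and the control was not analysed here. Each peak has a signal value from the authors' peak caller, of unstated scale, and a score that the authors derived from the global IDR. In the deposited ranked lists the global IDR is given as its −log10. The lists hold no read counts, so depth is unknown and no interval is given. The threshold of 0.01 was read from the lowest score of the deposited thresholded lists.

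Genes came from Ensembl release 115 and isotypes and sequence from RefSeq, both WBcel235. A summit within 500 bp of a gene start was assigned to that gene, and where several were, the one with the highest signal was used. Replicate values are those of the strongest peak in each replicate's own list, on that list's scale. The 2 matched-peak columns of the ranked list are not named by sample in the lists, and they coincided with the replicates' own peaks at 25 of 25 conservative tRNA peaks. Anticodons were read from a stem of 5 pairs (at least 4 matching) and a loop of 7 bases, and were found for 326 genes. The assignment was checked on simulated data, where 150 of 150 planted summits were recovered.

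With 1 group, no comparison between conditions and no test was made, and counts and medians over all nuclear genes stand beside those of the tRNA genes. The members and lists were chosen with earlier results of these data known. Named genes are those at the 12 conservative peaks with the highest signal, at each end of the ratio between the replicates, at shared peaks, at the 500 bp limit and at the 3 strongest peaks outside the conservative list, plus the selenocysteine gene. Members of the named families were added after their values were seen. Alternatives covered the window, the anchor, the list, the IDR threshold, the assignment and each replicate alone. Python 3.11.15, numpy 2.4.6, pandas 2.3.3, Biopython 1.88 and matplotlib 3.10.9 were used.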

Additional observations from a re-analysis of the deposited data

How the results depend on the processing

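Of 55 alternative values, 39 stayed within the set tolerance of the reported one (1.5 times for counts, the spread between replicates for medians), 15 moved and 1 changed sign. The median offset of 23 bp from the start became −12 bp when measured from the gene's middle, by construction, and the share of all nuclear genes with a conservative summit was then 0.783%. Using either replicate alone gave 4 to 11 genes and 2 to 8 peaks in place of 28 and 27, and shares of all nuclear genes of 0.584% to 0.610%. A list from 1 replicate has an IDR that cannot compare the replicates, so these counts are not a like measure. Median signals were 21.9 to 25.8 in place of 41.7, on each list's own scale. The strongest peak had 54.8 and 56.1 on those scales and 111 in the list of both. Ranked summits lay at 265 to 273 genes, and offsets were 5 to 32 bp. At a global IDR of 0.001, 6 genes and 4 peaks were left, with 0.497% of all nuclear genes. Among genes whose sequence occurs once, 6 genes and 7 peaks were left, since fewer genes enter, and the median signal was 37.1. The cause of the lower median was not tested. Windows of 250 and 1000 bp gave 28 and 31 genes, where the shares of all nuclear genes were 1.06% and 1.90% in place of 1.41%. Where no other gene starts nearer to the summit, 20 genes remained, and no such count was made for all nuclear genes. Chosen after seeing the data, leaving out peaks with a protein-coding start nearer gave 28 genes, and requiring the B box letters and an isotype gave 284 ranked genes.

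No paired analysis was possible because the design has 1 group. The precision rests on 2 replicates. The counts of conservative genes come from the list of both, and the lists of 1 replicate, with an IDR within that replicate, gave fewer. Depth is unknown, so a gene without a ranked summit is not shown to lack binding.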
